A study of Mus musculus with 10 samples.

Results

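The genes described here encode the laminin chains, the nidogens and the heparan sulfate proteoglycans perlecan and agrin, the non-collagen backbone of the basement membrane. They were chosen by symbol (Lama2, Lama4, Lama5, Lamb1, Lamb2, Lamc1, Nid1, Nid2, Hspg2 and Agrn), matched through GENCODE M21 to the gene IDs of the deposited count table. All 10 were found among 54446 gene IDs and passed the filter on low counts, which left 15181 tested genes. The study sequenced mRNA of aortic smooth muscle cells in primary culture, from KitW/Wv mice (WWv) and wild type mice (WT), with 5 libraries per genotype. The WWv cells carry the W and the Wv allele of Kit in every cell, both from the germ line, and the WT cells carry neither. Cells of both genotypes were released from the aorta with collagenase and grown in culture to passage 2. Kit encodes c-Kit, the receptor of stem cell factor. The W allele gives a receptor without its transmembrane part and the Wv allele one with a weakened kinase. The sources used here gave no sex, age, strain or litter. The labels number the libraries and the protocol names 5 mice of each genotype, but no label ties a library to a mouse, so p-values measure the spread between these libraries.

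Laminins are cross-shaped trimers of 1 alpha, 1 beta and 1 gamma chain. They polymerise on the cell surface, where integrins and dystroglycan hold them, and nidogens and perlecan join that sheet to the type IV collagen network. In the arterial media each smooth muscle cell is wrapped in such a membrane, and adhesion to laminin is known to favour the contractile over the synthetic state of these cells in culture.

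Totals lay between 43455518 and 53863661 counts in WWv libraries and between 42040255 and 51309067 in WT libraries. Kit stood at 2.00 ± 0.764 CPM (counts scaled to the effective library size) in WWv and 4.12 ± 0.629 CPM in WT (SD, n = 5 each; log2 fold change −1.04 ± 0.25 SE, edgeR adjusted p = 0.0122). A panel of 6 smooth muscle markers summed to 16748 to 20129 CPM in WWv and 9941 to 13003 CPM in WT, so the labelled cell type carried its defining transcripts in every library. Of the 6, 5 were called higher in WWv and 0 lower, beside 12.8% and 15.4% of all tested genes. The library WT 2 stood apart. Principal component 1 held 52.5% of the variance, and there WT 2 lay at −20.2, inside the range of WWv (−33.4 to −11.5) and away from the other WT libraries (29.1 to 51.1). On component 2, with 17.3%, WT 2 lay at 42.9, outside WWv (−23.1 to 20.2) and the other WT libraries (−7.38 to 12.0). Kit in WT 2 was the highest of all libraries, at 4.92 CPM, against at most 3.01 CPM in WWv. Its smooth muscle markers summed to 10318 CPM, within the range of the other WT libraries. The 8 endothelial markers summed to 94.1 to 219 CPM in WWv, to 337 CPM in WT 2 and to 93.2 to 111 CPM in the other WT libraries. Cdh5, Emcn and Pecam1 carried most of the sum in WT 2, at 107, 96.2 and 90.6 CPM. The 1 endothelial marker that was called, Erg, went the other way (log2 fold change −1.45, adjusted p = 0.00627). Erg stood at 4.55 to 11.4 CPM in WWv, at 14.4 CPM in WT 2 and at 16.2 to 37.6 CPM in the other WT libraries. The 6 adventitial fibroblast markers summed to 490 to 762 CPM in WWv, to 466 CPM in WT 2 and to 757 to 1029 CPM in the other WT libraries. None of these endothelial or fibroblast markers was at 0 in all libraries, and their part in the results below was not tested. In bulk RNA, fewer cells of a type and less RNA per cell cannot be told apart. The fold change of each of the 10 genes, and the calls among the genes around them, are therefore also given without WT 2. WT 2 was singled out after its values were seen, and leaving out such a library narrows the spread of WT. The p-values, calls and gaps between groups without WT 2 can thus be too favourable and are given as a description.

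Among the 10 genes the gamma chain gene Lamc1 alone passed the threshold, with higher levels in WWv cells. The threshold was a Benjamini-Hochberg adjusted p under 0.05 in edgeR's quasi-likelihood test over all tested genes. It was passed by 28.2% of all tested genes, 12.8% upward and 15.4% downward. The members called were thus 1 upward and 0 downward, and at an unadjusted p under 0.05 they were 3 upward (Lamc1, Lamb1 and Hspg2) and 1 downward (Nid2). DESeq2 called 2 members higher and 1 lower, against 15.1% and 17.8% of all tested genes. With limma-voom 2 were higher and 0 lower, and 27.4% of all tested genes were called. The replicate number as a block gave 2 higher and 0 lower, with 24% of all tested genes called, 11.2% upward and 12.8% downward. Without WT 2 the call of Lamc1 was kept, and Lamb1, Nid1 and Hspg2 also passed upward and Lama4 and Nid2 downward. Those 4 higher and 2 lower members stand beside 46.2% of all tested genes called without that library, 22.7% upward and 23.5% downward. Where WT 2 and WWv 1 were both left out, 5 members were higher and 2 lower, and 46.4% of all tested genes were called, 21.9% upward and 24.5% downward. The members' median log2 fold change was 0.19, against −0.01 over all tested genes, and without WT 2 it was 0.22, again against −0.01.

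**Figure D1:**
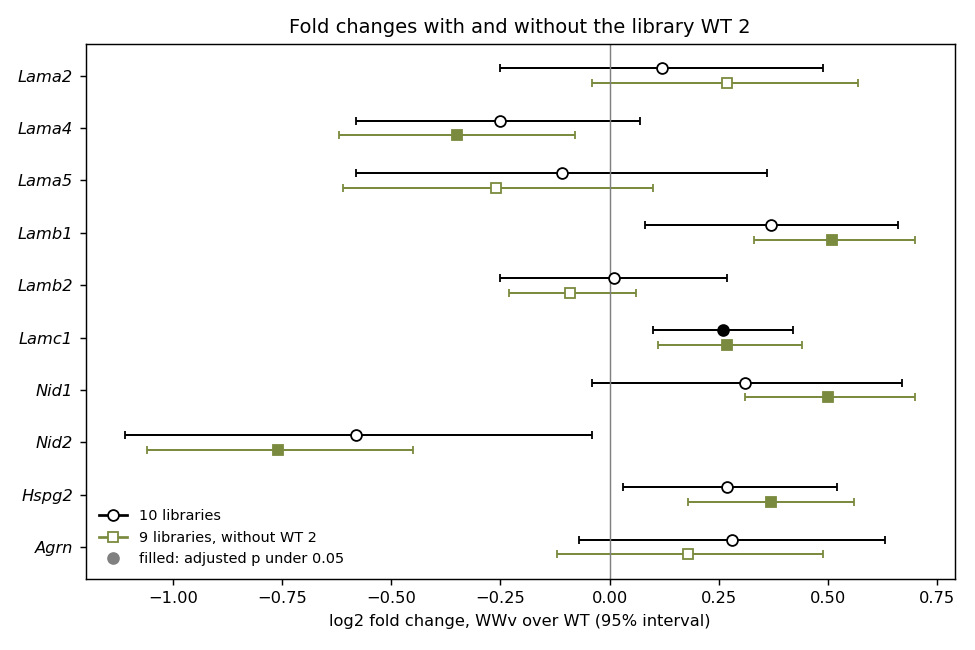
Log2 fold change of each gene in WWv over WT, with its 95% interval, from the fit of all 10 libraries (circles) and from the fit without WT 2 (squares); filled symbols have an adjusted p under 0.05. Lamc1 is filled in both fits, and Lama4, Lamb1, Nid1, Nid2 and Hspg2 are filled in the fit without WT 2.

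Per kilobase of exon, a rough scale for setting genes side by side, the 10 genes spanned a wide range, with the same order of means in both genotypes. The length is the union of annotated exons, and part of the order depends on it. For Lama4 it is 12068 bases and for Lamb1 9917, where the longest annotated transcripts have 6046 and 5784. With the longest transcript Lamb1 lay above Lamc1, and Lama4 above Lama5, in both genotypes. The values below use the union. Nid1 was highest, at 247 ± 22.5 CPM per kb in WWv and 199 ± 57.4 in WT, followed by Hspg2 at 170 ± 14.9 in WWv and 140 ± 23.7 in WT. Ranked by this level over all libraries, Nid1 stood at place 146 and Hspg2 at place 234 of the 15181 tested genes. Lamb2 came next, at 80.0 ± 5.95 CPM per kb in WWv and 79.5 ± 13.9 in WT. Nid2 stood at 50.5 ± 9.06 CPM per kb in WWv, within its spread of Lamc1 at 49.7 ± 4.47. In WT Nid2 stood at 75.3 ± 25.7 CPM per kb, within its spread of Lamb2. Lamb1 lay below these, at 39.9 ± 3.78 CPM per kb in WWv and 30.9 ± 6.82 in WT. The alpha chains were the scarcest laminins, with Lama5 at 15.7 ± 3.75 CPM per kb in WWv and 17.0 ± 4.72 in WT. Lama4 (8.32 ± 1.48 in WWv, 9.92 ± 1.75 in WT) and Lama2 (8.07 ± 0.474 in WWv, 7.41 ± 2.14 in WT) were within their spread of each other in WWv and about 1 SD apart in WT. Agrn was lowest, at 6.50 ± 1.24 CPM per kb in WWv and 5.35 ± 1.03 in WT.

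Together the 10 genes took 0.599 ± 0.0290% of all counts in WWv and 0.556 ± 0.0690% in WT (SD, n = 5 each). WT 2 had the largest share of all libraries, 0.667%, and WT 5 the smallest, 0.490%. The genes are long, with a median of 9601 exon bases against 4148 over all tested genes.

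**Figure D2:**
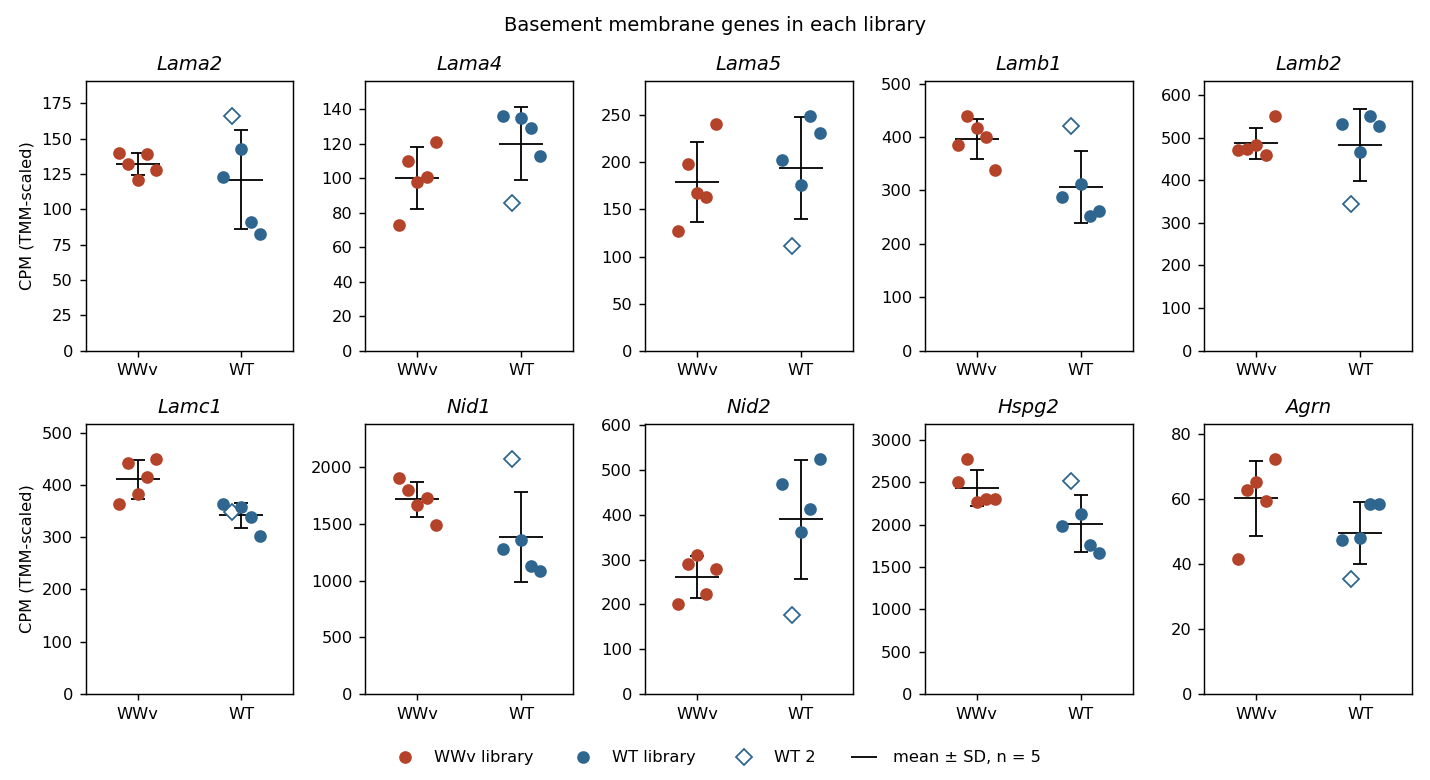
CPM of the 10 genes in each library, WWv left and WT right, with the mean ± SD (n = 5) as a bar; the open diamond is WT 2 and every axis starts at 0. The libraries of the groups are apart for Lamc1 alone, and WT 2 is the highest or lowest WT library for every gene except Lamc1.

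The alpha chain decides which receptors a laminin trimer binds. Lama2 encodes the chain of muscle laminin and is mutated in a congenital muscular dystrophy (chromosome 10, 26980036 to 27619758, minus strand, mm10 as are all positions here). It stood at 140, 132, 121, 139 and 128 CPM in WWv 1 to 5, and at 123, 166, 143, 91.3 and 82.7 CPM in WT 1 to 5. The WWv values were close together and lay inside the wider range of WT, with WT 2 the highest library of all. The log2 fold change was 0.12 ± 0.17 (95% interval −0.25 to 0.49, adjusted p = 0.61), and 0.27 ± 0.14 (adjusted p = 0.136) without WT 2.

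Lama4 encodes a short alpha chain of vessel walls, muscle and fat, without the arm that polymerises (chromosome 10, 38965515 to 39110188, plus strand). It stood at 72.8, 110, 97.9, 101 and 121 CPM in WWv 1 to 5, and at 136, 85.5, 135, 129 and 113 CPM in WT 1 to 5. WWv 1 was the lowest library, WT 2 the next, and the groups overlapped. The log2 fold change of −0.25 ± 0.15 (95% interval −0.58 to 0.07) did not pass (adjusted p = 0.224). Without WT 2 Lama4 fell by 0.35 on the log2 scale (SE 0.12, adjusted p = 0.0344), although WWv 5 and WT 5 still overlapped.

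Lama5 encodes the largest alpha chain, found in adult endothelial, epithelial and smooth muscle membranes (chromosome 2, 180176373 to 180225859, minus strand). It stood at 127, 198, 167, 163 and 241 CPM in WWv 1 to 5, and at 202, 111, 176, 249 and 231 CPM in WT 1 to 5. Both groups spread over about the same range, with WT 2 lowest and WT 4 highest. The log2 fold change was −0.11 ± 0.21 (95% interval −0.58 to 0.36, adjusted p = 0.726), and −0.26 ± 0.16 (adjusted p = 0.22) without WT 2.

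The beta chains form laminins of otherwise like make-up. Lamb1 encodes the beta chain that is widespread in embryonic and adult membranes (chromosome 12, 31265234 to 31329644, plus strand). It stood at 385, 439, 416, 401 and 339 CPM in WWv 1 to 5, and at 287, 420, 313, 252 and 262 CPM in WT 1 to 5. All WWv libraries lay above the 4 WT libraries other than WT 2, and WT 2 lay among the highest of WWv. Over all libraries the log2 fold change was 0.37 ± 0.13 (95% interval 0.08 to 0.66, adjusted p = 0.0572). Without WT 2 Lamb1 rose by 0.51 ± 0.08, or 1.43-fold (adjusted p = 0.000718). It passed with all 10 libraries in DESeq2 (0.37, adjusted p = 0.0311) and in limma-voom (0.39, adjusted p = 0.0454).

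Lamb2 encodes the beta chain of mature vessel wall, kidney filter and neuromuscular junction (chromosome 9, 108479736 to 108490530, plus strand). It stood at 470, 474, 482, 459 and 550 CPM in WWv 1 to 5, and at 531, 343, 465, 550 and 528 CPM in WT 1 to 5. The WWv libraries lay inside the range of WT, and WT 2 was the lowest of all. Between the genotypes the log2 fold change was 0.01 ± 0.12 (95% interval −0.25 to 0.27, adjusted p = 0.956). It was −0.09 ± 0.07 (95% interval −0.23 to 0.06, adjusted p = 0.301) without WT 2.

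Lamc1 encodes the gamma chain shared by most laminins, which carries the binding site for nidogen (ENSMUSG00000026478.14, chromosome 1, 153218922 to 153332786, minus strand). It stood at 364, 443, 383, 416 and 449 CPM in WWv 1 to 5, and at 363, 349, 357, 339 and 303 CPM in WT 1 to 5. Every WWv library lay above every WT library, although WWv 1 and WT 1 were only about 1 CPM apart. Groups that did not overlap were found for 15.9% of all tested genes, and for 1 of the 10 members. Lamc1 averaged 411 ± 37.0 CPM in WWv and 342 ± 23.6 CPM in WT (SD, n = 5 each), and rose by 0.26 ± 0.07 on the log2 scale, or 1.20-fold (95% interval 0.10 to 0.42, adjusted p = 0.0208). WT 2 lay within the other WT libraries for this gene, and without it the change was 0.27 (adjusted p = 0.0128). The call was lost without WWv 2 (0.23, adjusted p = 0.0602), without WWv 4 (0.25, adjusted p = 0.0539) or without WWv 5 (0.22, adjusted p = 0.0551), with the replicate number as a block (0.26, adjusted p = 0.0668), and where libraries were scaled by their size alone (0.18, adjusted p = 0.0939).

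The genes whose pattern was most like that of Lamc1 were Fam20c, a Golgi kinase of secreted proteins, Zfp703 and Tmem189. Likeness was the root mean square difference of mean-centred log2 CPM over the 10 libraries, among 8820 genes with a mean of at least 10 CPM. It was 0.0489 for Fam20c, 0.0597 for Zfp703 and 0.0614 for Tmem189, against a median of 0.201 over all genes compared.

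Nidogens are rod-shaped linkers that bind the laminin gamma chain at one end and type IV collagen and perlecan at the other. Nid1 encodes the ubiquitous nidogen, also called entactin (chromosome 13, 13437551 to 13512269, plus strand). It stood at 1905, 1800, 1669, 1725 and 1487 CPM in WWv 1 to 5, and at 1281, 2068, 1356, 1128 and 1084 CPM in WT 1 to 5. WT 2 was the highest of all libraries, and all WWv libraries lay above the remaining WT libraries. With all libraries the log2 fold change of 0.31 ± 0.16 (95% interval −0.04 to 0.67) did not pass (adjusted p = 0.169). Without WT 2 Nid1 rose by 0.50 ± 0.09, or 1.42-fold (adjusted p = 0.000998).

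Nid2 encodes the second nidogen, which has a more restricted distribution and is rich in vessels (chromosome 14, 19751265 to 19811787, plus strand). It stood at 200, 290, 311, 224 and 280 CPM in WWv 1 to 5, and at 470, 177, 362, 414 and 524 CPM in WT 1 to 5. Here WT 2 was the lowest of all libraries, and all WWv libraries lay below the remaining WT libraries. The log2 fold change of −0.58 ± 0.24 was the largest of the 10 genes in size, with a wide interval (−1.11 to −0.04), and did not pass (adjusted p = 0.0986). Without WT 2 Nid2 fell by 0.76 on the log2 scale, or 1.69-fold (SE 0.14, adjusted p = 0.00135). In DESeq2 with all libraries it lay at the threshold (−0.57, adjusted p = 0.0495).

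Perlecan, encoded by Hspg2, is a large proteoglycan whose heparan sulfate chains bind growth factors and are known to restrain smooth muscle proliferation (chromosome 4, 137468769 to 137570630, plus strand). Hspg2 stood at 2506, 2772, 2266, 2308 and 2299 CPM in WWv 1 to 5, and at 1979, 2520, 2126, 1761 and 1662 CPM in WT 1 to 5. WT 2 was above all WWv libraries but WWv 2, and the other WT libraries were below all WWv libraries. With all libraries its log2 fold change of 0.27 ± 0.11 (95% interval 0.03 to 0.52) did not pass (adjusted p = 0.0889). Without WT 2 Hspg2 rose by 0.37 ± 0.09, or 1.29-fold (adjusted p = 0.00575).

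Agrn encodes agrin, a proteoglycan that clusters acetylcholine receptors at the neuromuscular junction and binds laminin and dystroglycan elsewhere (chromosome 4, 156165290 to 156197488, minus strand). It stood at 41.6, 62.8, 65.4, 59.5 and 72.3 CPM in WWv 1 to 5, and at 47.5, 35.5, 48.2, 58.7 and 58.5 CPM in WT 1 to 5. WWv 1 and WT 2 were the lowest library of their group, and 4 of 5 WWv libraries lay above all WT libraries. Over the 10 libraries the log2 fold change was 0.28 ± 0.16 (95% interval −0.07 to 0.63, adjusted p = 0.211). It was 0.18 ± 0.14 (adjusted p = 0.295) without WT 2 and passed where WT 2 and WWv 1 were both left out (0.29, adjusted p = 0.0196).

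Exons of Nid2 share 437 of 5174 bases with Rtraf on the opposite strand, those of Lama2 631 of 16338 with the antisense gene Gm48084, and those of Nid1 143 of 6943 with the antisense gene Gm48682. The strand setting of the counting was not given, so part of the reads of these 3 genes is uncertain. The other 7 members shared no exon base with another annotated gene.

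The 10 genes fell into opposite patterns in WT 2. Against the mean log2 CPM of the other WT libraries, WT 2 was higher by 0.78 for Nid1, 0.64 for Lama2, 0.60 for Lamb1 and 0.43 for Hspg2. It was lower for Nid2 (−1.31), Lama5 (−0.93), Lamb2 (−0.59), Lama4 (−0.58) and Agrn (−0.58), and level for Lamc1 (0.04). Lama2, Lamb1, Nid1 and Hspg2 also shared the order of the WT libraries: WT 2 was highest, then WT 3 and WT 1, and WT 4 and WT 5 were lowest. With WT 2 left out, the groups did not overlap for 5 of the 10 genes (Lamb1, Lamc1, Nid1, Nid2 and Hspg2), against 36.4% of all tested genes. In WWv 1, whose endothelial markers summed to 199 CPM, Lama4, Lama5, Lamc1, Nid2 and Agrn had their lowest value among the WWv libraries. Lama2 and Nid1 had their highest value of WWv there, and Lamb1, Lamb2 and Hspg2 lay in between. WWv 4, with 219 CPM of the same markers, was the next lowest of WWv for Lama5, Nid2 and Agrn, but not for Lama4 or Lamc1. Whether the levels go with these markers was not tested.

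**Figure D3:**
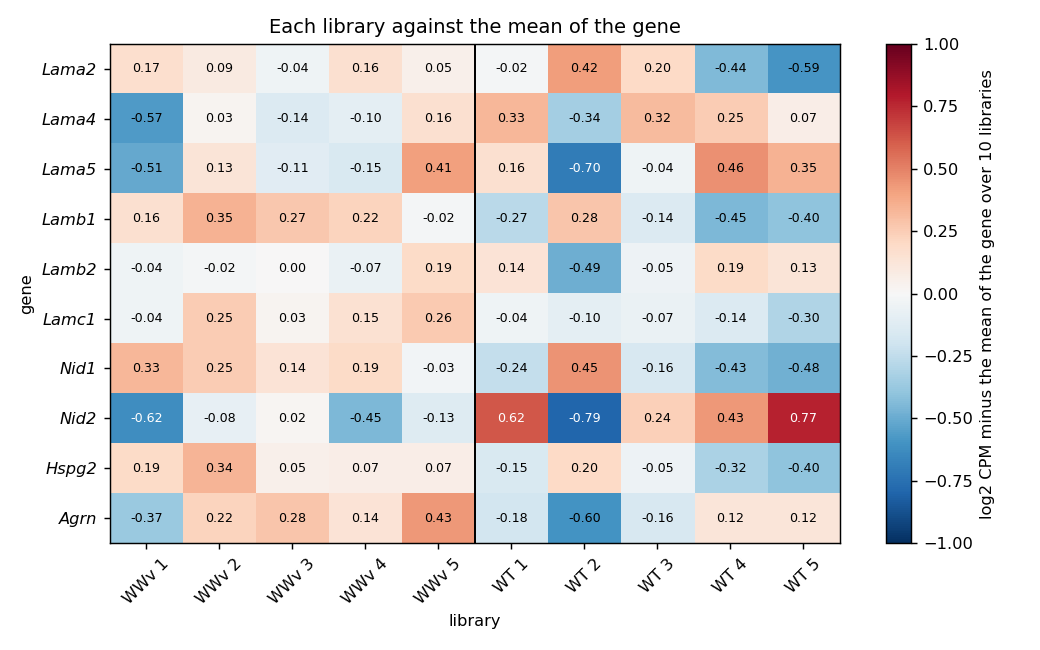
Log2 CPM of each gene in each library minus the mean of that gene over the 10 libraries, WWv left of the line and WT right of it. WT 2 is above the mean for Lama2, Lamb1, Nid1 and Hspg2 and below it for the other genes, from 0.45 for Nid1 to −0.79 for Nid2.

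Lama2, Lamb1, Nid1 and Hspg2 were the genes with WT 2 highest and this order of WT libraries. The bases from 250 to 61 before their RefSeq starts are printed to show how these windows compare. The window of Lama2 lies inside the annotated gene, which runs from 26980036 to 27619758 on the minus strand. It is therefore not the sequence before the annotated 5' end of Lama2. RefSeq held promoters for 7 of the 10 members on GRCm38.p6. Lama4, Lamc1 and Nid2 had no entry in the table used. The window of Lama2 is read on the minus strand and the other 3 on the plus strand. Capitals mark a GC box (GGGCGG) or a CCAAT box (CCAAT), read on both strands.
Lama2, chr10:27617003-27617192: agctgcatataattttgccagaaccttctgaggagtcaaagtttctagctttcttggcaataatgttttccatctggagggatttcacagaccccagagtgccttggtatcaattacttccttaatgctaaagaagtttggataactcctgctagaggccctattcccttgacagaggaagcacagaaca
Lamb1, chr12:31265043-31265232: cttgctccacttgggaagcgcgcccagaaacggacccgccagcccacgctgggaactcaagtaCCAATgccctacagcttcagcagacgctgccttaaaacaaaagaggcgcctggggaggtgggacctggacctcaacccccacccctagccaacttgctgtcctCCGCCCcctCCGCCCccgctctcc
Nid1, chr13:13437352-13437541: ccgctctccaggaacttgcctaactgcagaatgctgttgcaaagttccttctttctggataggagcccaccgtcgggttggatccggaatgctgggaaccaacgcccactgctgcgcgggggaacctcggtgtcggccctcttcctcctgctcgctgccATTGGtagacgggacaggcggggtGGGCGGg
Hspg2, chr4:137468553-137468742: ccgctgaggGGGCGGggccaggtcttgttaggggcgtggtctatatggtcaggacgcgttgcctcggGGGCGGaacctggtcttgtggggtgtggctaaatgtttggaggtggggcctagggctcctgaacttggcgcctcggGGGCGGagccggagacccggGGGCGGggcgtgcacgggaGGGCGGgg

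The printed windows differed in base composition. G and C made up 64.2% in Lamb1, 62.6% in Nid1 and 70.5% in Hspg2 but 42.6% in Lama2, against a median of 51.6% over 32851 promoters of the table. The window of Hspg2 held 5 GC boxes, that of Lamb1 2, that of Nid1 1 and that of Lama2 0, and 22.8% of all promoters held at least 1 in the same 190 bases. A CCAAT box was found once in Lamb1 and once in Nid1, and in 26.7% of all promoters. None of the 4 windows held a TATA box (TATAAA, in 8.73% of all promoters) or a CArG box, the site bound by serum response factor (in 1.08%). Members that were low in WT 2 also ranged widely. One of the 2 RefSeq windows of Agrn had 84.2% G and C with 9 GC boxes and the other 58.4% with 0, Lama5 had 71.1% with 2, and Lamb2 had 44.7% with 0. The Agrn window with 58.4% lies inside the annotated gene, and the Lamb2 window runs into its annotated gene. No comparison of GC content or GC boxes between genes high and low in WT 2 is drawn from these windows. The genes are few, Lama4, Lamc1 and Nid2 are missing, and some windows lie within annotated genes. Whether such letters go with the level in WT 2 was not tested. These matches describe letters and are not shown to be bound.

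The make-up of each chain class was followed as the share of each gene in the summed counts per kilobase of its class, given as a description with no test. Among the nidogens, Nid2 made up 12.3, 17.8, 20.0, 14.9 and 20.2% in WWv 1 to 5, and 33.0, 10.3, 26.4, 33.0 and 39.3% in WT 1 to 5. The share of Nid2 was thus lower in all WWv libraries than in WT 1, WT 3, WT 4 and WT 5, and lowest of all in WT 2. It averaged 17.0 ± 3.39% in WWv and 28.4 ± 11.1% in WT, or 32.9 ± 5.29% in WT without WT 2.

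Among the beta chains, Lamb2 made up 66.6, 63.8, 65.4, 65.1 and 72.5% in WWv 1 to 5, and 75.1, 57.1, 70.7, 78.1 and 76.7% in WT 1 to 5. WWv 5 was the only WWv library inside the range of the 4 WT libraries other than WT 2. The mean share was 66.7 ± 3.43% in WWv and 71.6 ± 8.51% in WT, or 75.2 ± 3.18% in WT without WT 2. Among the alpha chains, Lama5 held 48.5 ± 4.16% in WWv and 48.8 ± 9.37% in WT. Lama4 held 25.8 ± 1.42% in WWv and 28.8 ± 2.40% in WT, and Lama2 25.7 ± 4.93% in WWv and 22.4 ± 9.52% in WT. The ranges of the groups overlapped for all 3 alpha chains, for Lama4 through WT 2 alone. Lama4 held 23.4 to 26.9% in WWv, 26.2% in WT 2 and 27.1 to 31.6% in the other WT libraries.

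**Figure D4:**
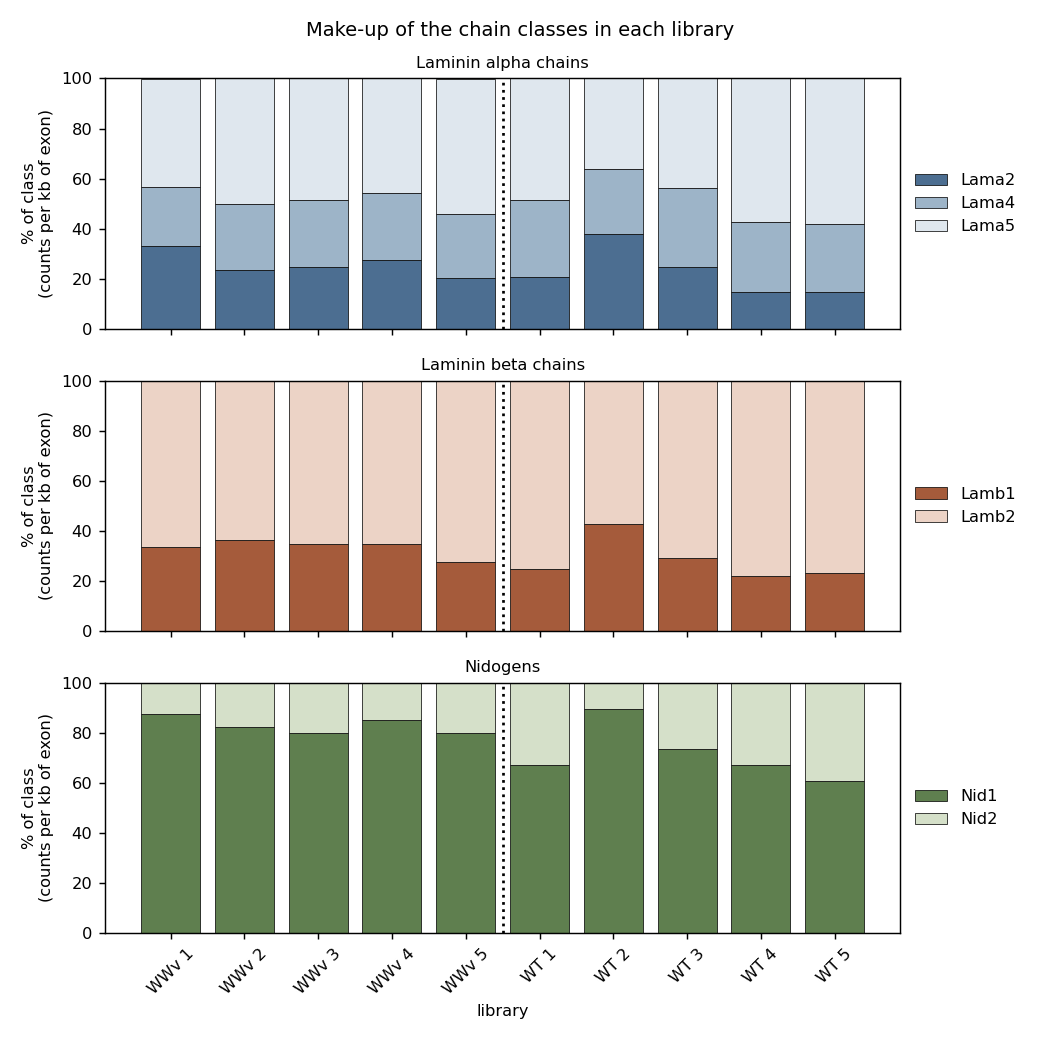
Share of each gene in the counts per kilobase of exon summed over its class, in percent, for each library, with WWv left of the dotted line and WT right of it. Nid2 takes 12.3 to 20.2% of the nidogens in WWv, 26.4 to 39.3% in WT 1, 3, 4 and 5, and 10.3% in WT 2.

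Summed over chains, the alpha chains reached 32.1 ± 4.97 CPM per kb in WWv and 34.3 ± 4.27 in WT. The beta chains reached 120 ± 3.88 CPM per kb in WWv and 110 ± 7.26 in WT, and Lamc1, as the gamma chain, 49.7 ± 4.47 in WWv and 41.4 ± 2.85 in WT. In both genotypes the alpha chain transcripts were thus the scarcest of the 3 classes and the beta chain transcripts the most abundant. The order of the classes was the same where the longest annotated transcript stood in for the union of exons (alpha 46.1, gamma 53.9 and beta 155 CPM per kb in WWv; alpha 49.4, gamma 44.9 and beta 139 in WT) except that in WT the alpha sum then passed the gamma chain.

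The genes around the 10 members were taken from lists of basement membrane parts, receptors and heparan sulfate enzymes. Beside the calls in these lists, 12.8% of all tested genes were called upward and 15.4% downward. Without WT 2 these shares were 22.7% and 23.5%. The type IV collagens form the network that nidogens and perlecan tie to laminin. Of 6 listed and tested, 2 rose and 1 fell (median log2 fold change 0.46). Col4a1, a chain of the common trimer, rose to 2637 ± 176 CPM in WWv, against 1899 ± 245 CPM in WT (log2 fold change 0.47 ± 0.09, adjusted p = 0.00485). Its partner chain Col4a2 rose to 1966 ± 116 CPM in WWv, against 1411 ± 146 CPM in WT (0.48 ± 0.08, adjusted p = 0.00216). For both, all WWv libraries lay above all WT libraries, and WT 2 was the lowest WT library, unlike its place for Nid1 and Hspg2. Col4a6, a chain of smooth muscle and epithelial membranes, fell (−0.63 ± 0.20, adjusted p = 0.0392), with overlap between the groups. The call of Col4a6 was lost without any 1 of WWv 1 (−0.62), WWv 2 (−0.65), WWv 3 (−0.53), WWv 4 (−0.63), WT 1 (−0.53), WT 3 (−0.58), WT 4 (−0.60) and WT 5 (−0.66). Without WT 2 all 3 calls were kept, at 0.41 for Col4a1, 0.43 for Col4a2 and −0.77 for Col4a6.

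Outside the members, the laminin chain gene Lama3, the alpha chain of epithelial laminin, was scarce and fell to 0.496 ± 0.153 CPM in WWv, against 3.21 ± 1.97 CPM in WT (log2 fold change −2.69 ± 0.41, adjusted p = 0.00155). Every WWv library was below every WT library, with WT 2 lowest of WT at 1.68 CPM, and without WT 2 the change was −2.85 (adjusted p = 0.000221). Exons of Lama3 share 1.83% of their bases with an antisense gene, so that part of its reads is uncertain.

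Of 16 tested further basement membrane genes (18 listed), 3 rose and 6 fell (median −0.40), beside 12.8% and 15.4% of all tested genes. Without WT 2 the counts were 3 and 8, beside 22.7% and 23.5% of all tested genes. The largest falls were those of Smoc2 (log2 fold change −1.79 ± 0.29, adjusted p = 0.00185), a secreted calcium-binding protein, and Hmcn1 (−1.69), Egflam (−1.49) and Fras1 (−1.42), each with a mean under 1 CPM in WWv. The call of Egflam was lost without WWv 2 (−1.45), WT 1 (−1.41) or WT 4 (−1.25). Hmcn1, Egflam and Fras1 share 1.88%, 3.23% and 0.898% of their exon bases with antisense genes, so that part of their reads is uncertain. The other falls were those of Fbln1, the secreted glycoprotein fibulin 1 (−1.35), and the netrin gene Ntn1 (−0.59), and without WT 2 Smoc1 (−0.52) and Frem1 (−1.19) also fell. The rises were those of Col15a1, a collagen of the zone around basement membranes (1.09), Ntn4, a netrin that binds laminin (0.57), and Pxdn, the peroxidase that crosslinks type IV collagen (0.43). These 7 genes were named after their values were seen. The call of Col15a1 was lost without WWv 2 (1.00), WWv 3 (1.03), WWv 4 (1.04), WWv 5 (1.02), WT 1 (0.95), WT 3 (1.08) or WT 4 (1.06).

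Among receptors, the integrin beta chain Itgb1, the partner of most laminin-binding alpha chains, rose to 3350 ± 159 CPM in WWv, against 2223 ± 135 CPM in WT (log2 fold change 0.59 ± 0.06, adjusted p = 0.000351). Without WT 2 the change of Itgb1 was 0.62. It was the 1 gene called higher of 8 tested (laminin-binding integrins and the laminin receptor gene Bcam), and 0 were lower (1 at an unadjusted p under 0.05, 1 in DESeq2, 0 in limma-voom; median 0.30). Without WT 2, 4 were higher and 2 lower, beside 22.7% of all tested genes higher and 23.5% lower. The 3 added upward were Itga3 (1.07, adjusted p = 0.00267), Itga6 (0.89, adjusted p = 0.00193) and Itgb4 (0.69, adjusted p = 0.0198). Those added downward were Itga2 (−0.74, adjusted p = 0.00627) and Itga1 (−0.52, adjusted p = 0.0118). These 5 were named after their values were seen. WT 2 held the highest Itga3, Itga6 and Itgb4 of all 10 libraries, at 86.1, 22.7 and 11.5 CPM. Without WWv 1, Itga7, an alpha chain of muscle, was also higher (0.59, adjusted p = 0.0357), and without WWv 5, Itga2 was lower (−0.76, adjusted p = 0.0288).

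The dystrophin-glycoprotein complex links laminin through dystroglycan to actin. Of 13 tested genes (14 listed) 4 rose and 0 fell (median 0.17), beside 12.8% of all tested genes upward and 15.4% downward. Also at an unadjusted p under 0.05, in DESeq2 and in limma-voom 0 were lower. Dmd, which encodes dystrophin, averaged 60.3 ± 2.75 CPM in WWv and 24.3 ± 6.29 CPM in WT and rose by 1.31 ± 0.15 on the log2 scale (adjusted p = 0.000417), with WT 2 the highest of WT. Sgcd, delta-sarcoglycan, rose by 0.66, Utrn, the dystrophin homologue utrophin, by 0.50 and Dtna, dystrobrevin alpha, by 0.49. Without WT 2 the changes were 1.46 for Dmd, 0.75 for Sgcd, 0.49 for Utrn and 0.51 for Dtna, all called. Sgca, alpha-sarcoglycan, was then called as well (0.77, adjusted p = 0.026), as the 1 further gene of this list. Dag1, dystroglycan itself, stood at 514 ± 39.8 CPM in WWv and 456 ± 71.7 CPM in WT (0.17, adjusted p = 0.252). Sgca and Dag1 were named after their values were seen.

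Among genes that build the laminin-binding sugar on dystroglycan, B4gat1 (log2 fold change 0.20, adjusted p = 0.0213) and Pomgnt1 (0.13, adjusted p = 0.0298) rose by small amounts. Neither passed where libraries were scaled by size alone, and both passed without WT 2 (B4gat1 0.18, Pomgnt1 0.11). The call of B4gat1 was lost without WWv 2 (0.18), WWv 3 (0.18), WWv 5 (0.17), WT 1 (0.19) or WT 3 (0.18). That of Pomgnt1 was lost without WWv 2 (0.13), WWv 3 (0.13), WWv 4 (0.13), WT 3 (0.14) or WT 4 (0.13). B4gat1 shares 85.3% of its exon bases with a gene on the same strand and Pomgnt1 11.7% with one on the opposite strand, so their reads are uncertain. Of the 4 listed genes of the agrin receptor complex 2 could be tested. Lrp4, the receptor that binds agrin, fell to 6.93 ± 0.667 CPM in WWv, against 10.7 ± 2.58 CPM in WT (−0.62 ± 0.14, adjusted p = 0.0099; −0.63 without WT 2). Musk, the kinase that Lrp4 activates in muscle, reached at most 0.313 CPM in any library and was not tested.

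Heparan sulfate is the sugar chain of perlecan and agrin. Of 19 genes of its assembly 3 rose and 3 fell (median 0.11), beside 12.8% of all tested genes upward and 15.4% downward. Hs3st3b1, a sulfotransferase, rose by 0.73 on the log2 scale. The chain-starting enzyme gene Xylt1 (−0.63) and the sulfotransferase genes Hs6st1 (−0.55) and Hs3st1 (−0.76) fell. The other rises, named after their values were seen, were those of the sulfotransferase gene Hs2st1 (0.48) and the epimerase gene Glce (0.39). Without WT 2 the same 3 genes were called higher and the same 3 lower, from 0.69 for Hs3st3b1 to −0.79 for Hs3st1. The call of Hs6st1, which overlaps an antisense gene, was lost without WWv 1 (−0.54), WWv 2 (−0.53), WWv 4 (−0.55), WT 4 (−0.40) or WT 5 (−0.48). Of 9 genes that trim heparan sulfate or basement membrane proteins 2 rose and 2 fell (median −0.20). Sulf1, which removes sulfate from the chains, rose to 643 ± 110 CPM in WWv, against 450 ± 24.4 CPM in WT (0.51 ± 0.11, adjusted p = 0.0081). Its relative Sulf2 fell (−0.38 ± 0.12, adjusted p = 0.0328), and Hpse, the heparanase that cuts the chains, fell to 4.93 ± 0.816 CPM in WWv, against 8.38 ± 1.28 CPM in WT (−0.77 ± 0.14, adjusted p = 0.00364). Mmp14, a membrane-bound metalloprotease, rose by 0.30 (adjusted p = 0.0315). Without WT 2 these 4 calls were kept (Sulf1 0.54, Sulf2 −0.41, Hpse −0.85, Mmp14 0.26). The metalloprotease genes Tll1 (0.62) and Bmp1 (−0.72), named after their values were seen, were then called too. Exons of Sulf2 share 2.62% of their bases with Ncoa3 on the opposite strand, so that part of its reads is uncertain. The call of Sulf2 was lost without WWv 2 (−0.40), WWv 3 (−0.30), WWv 4 (−0.39), WWv 5 (−0.39), WT 1 (−0.31), WT 3 (−0.37) or WT 4 (−0.34). That of Mmp14 was lost without WWv 2 (0.29), WWv 3 (0.26), WWv 4 (0.31), WT 1 (0.26), WT 3 (0.30) or WT 4 (0.31).

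**Figure D5:**
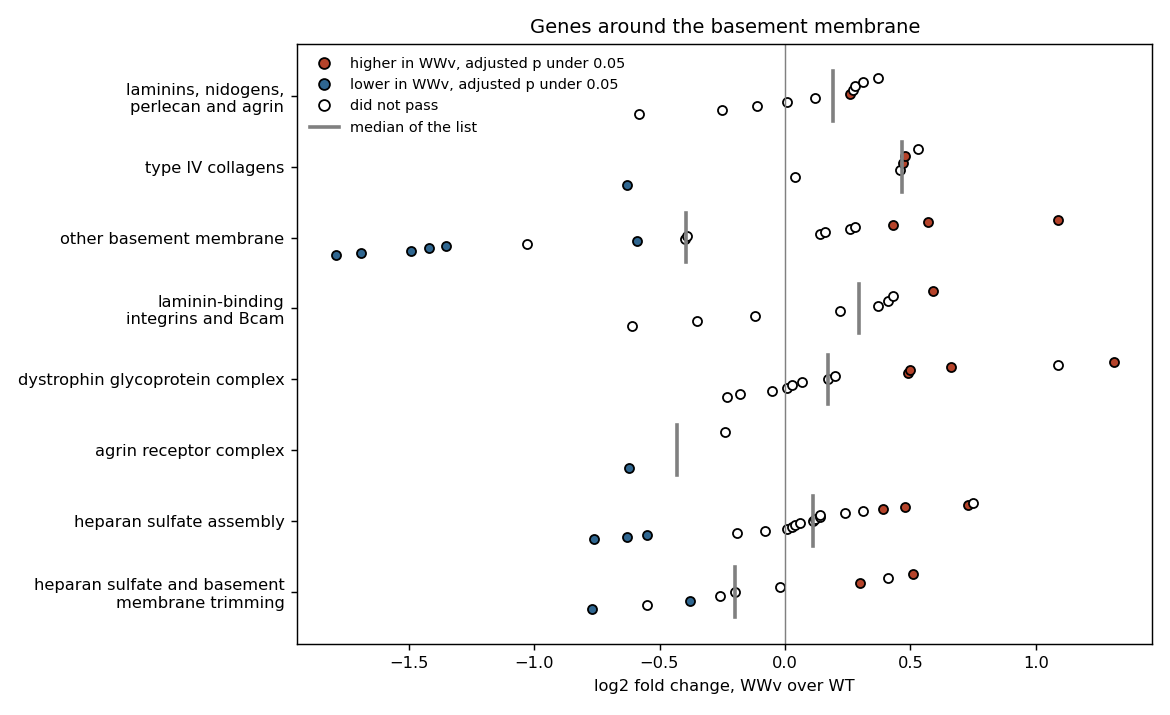
Log2 fold change in WWv over WT (all 10 libraries) of each tested gene, by list (without the other laminin chains and the dystroglycan glycosylation genes), with calls at an adjusted p under 0.05 filled and the median of each list as a grey bar. In the top row Lamc1 is the only filled member; Dmd at 1.31 and Smoc2 at −1.79 are the points farthest out to the right and left.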

How the data were processed

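Messenger RNA libraries of 5 WWv and 5 WT cultures were analysed from 1 table. It holds whole-number read counts as deposited by the authors, not normalized, for 54446 Ensembl IDs. Per the submitters' processing notes, bcl2fastq 2.17, Trim Galore 0.4.3, STAR 2.5.2a and the build mm10 were used. How reads were assigned to genes (tool, strand setting, annotation) is not given in the sources used here. IDs were matched without their version to GENCODE M21 on GRCm38 (54409 matched), which also gave exon lengths. The members and lists were chosen with earlier results of these data known.

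The main test was edgeR's quasi-likelihood F test (edgeR 4.0.16 in R 4.3.3), two-sided, with group as the only term, TMM scaling and filterByExpr at a minimum count of 10. Adjusted p-values are Benjamini-Hochberg values over 15181 genes. CPM carry the TMM factors. The SE is the log2 fold change over the square root of F. The procedure was tested on simulated data. Alternatives were RLE scaling, library size only, other filters, DESeq2 1.42.0, limma-voom (limma 3.58.1), the replicate number as a block, and libraries left out. From each list the text was to name up to 4 called genes of largest change or, with none, the 1 of smallest p. Some results of 2 lists (other laminin chains, dystroglycan glycosylation) are not reported here.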

Additional observations from a re-analysis of the deposited data

Results flagged for a closer look

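In WT, Nid1 was set apart by 1 library. WT 2 stood at 2068 CPM against 1084 to 1356 CPM in the other WT libraries, and the gap to its neighbour was 0.724 of the whole range of the group. In WWv, Lamb2 was set apart by WWv 5, at 550 CPM against 459 to 482 CPM in the other WWv libraries, with a gap of 0.749 of the range. Both ratios exceed Dixon's 95% critical value for 5 libraries. Of 30 groups of 5 libraries looked at (the 10 genes and 5 chain shares in each genotype) 2 exceeded it, and chance gives about 1 in 20.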

How the results depend on the processing

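The count of members called depended on WT 2. Leaving out 1 library at a time gave 3013 to 7127 called genes in all, 0 to 4 members higher and 0 to 2 lower, the upper ends all without WT 2. Without WT 2 and WWv 1 together there were 7111 called genes, with 5 members higher and 2 lower. Members higher numbered 0 with library size only and 2 in DESeq2, in limma-voom and with the replicate block, and 1 was lower in DESeq2. Lamb2, which was not called, changed sign with library size only (−0.07), with at least 1 CPM in 5 libraries (−0.01), without both libraries (−0.08) and over single libraries left out (−0.09 to 0.06). With the longest transcript the share of Lama4 was 35.9% in WWv and 39.8% in WT, that of Lama5 33.8% in WWv and 34.1% in WT, and that of Lamb2 55.8% in WWv and 61.6% in WT. These shares differ from those above through the length alone, since the counts are the same. The cause of the other changes was not tested.

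Same-numbered libraries deviated together with correlations of −0.0920, −0.0129, 0.0368, −0.0712 and 0.308, so the numbers were not taken to pair the samples. With the replicate block 3636 genes were called, Lamb1 (0.39, adjusted p = 0.0204) and Hspg2 (0.29, adjusted p = 0.0425) passed and Lamc1 did not (0.26, adjusted p = 0.0668). No WWv library correlated best with the WT library of its own number.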
